A study of Mus musculus with 6 samples.

Results

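Vnn1 and Vnn3, the mouse vanin genes, encode pantetheinases and were chosen by their measured levels, because both stood higher in the paclitaxel (PTX)-resistant line MPC-PTX than in its parent line MPC with close replicates. They are 2 of the 21959 genes in the count table, matched by gene name, and both were among the 11795 genes with enough counts to be fitted. Since this contrast selected them, their levels and fold changes are given as a description, with no test. RNA sequencing read poly-A RNA from 3 libraries of each line, all marked as 1 batch.

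Both lines are mouse gastric adenocarcinoma cells, called MTC and MTC-R in the study and MPC and MPC-PTX in the sample labels, which are used here. Both carry the genotype CDH1-/-;Trp53-/-, the loss of E-cadherin and of p53, which goes back to gastric organoids of C57BL/6J mice with floxed alleles and Mist1-CreER, a tamoxifen-induced recombinase driven from the Mist1 gene, and to growth under the skin of a BALB/c nude mouse. MPC was the untreated control. MPC-PTX received more than 30 cycles of PTX, a microtubule-stabilising drug, at rising doses. Each line went through monoclonal selection, so each stands for 1 clone, and a difference between the lines cannot be told apart from a difference between clones. The labels do not say whether the 3 replicates of a line were separate cultures, so p-values measure the spread among these libraries only, which may be technical.

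Vanins split pantetheine, a breakdown product of coenzyme A (CoA), into pantothenate (vitamin B5) and cysteamine. Pantothenate can be taken up and built into CoA again, whereas cysteamine is a thiol that can be oxidised to hypotaurine. Vnn1 is anchored in the membrane of epithelial cells with its catalytic part outside the cell, and in liver it is a well-known target of the nuclear receptor PPARalpha.

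Vnn1 (ENSMUSG00000037440) lies on the plus strand at chr10:23894688-23905343 and Vnn3 (ENSMUSG00000020010) on the same strand at chr10:23851462-23869843 (GRCm38, GENCODE M21). Their starts are 43.2 kb apart, with Vnn3 upstream and a gap of 24.8 kb between the end of Vnn3 and the start of Vnn1. Each transcript used here has 7 exons, with coding sequences of 1536 bases (511 residues) for Vnn1 and 1500 bases (499 residues) for Vnn3. Of 1472 aligned coding bases 66.24% were identical. The longest exact run the transcripts share is 12 bases long and lies in exon 4 of both genes. The 120 coding bases around that run are shown because they bear on whether reads could have been counted for the wrong vanin, with the shared run in capitals. The Vnn1 stretch covers coding bases 723 to 842 and the Vnn3 stretch coding bases 720 to 839, and both span the junction of exons 4 and 5 (chr10:23899576-23900594 and chr10:23864520-23865637, including the intron).
Vnn1: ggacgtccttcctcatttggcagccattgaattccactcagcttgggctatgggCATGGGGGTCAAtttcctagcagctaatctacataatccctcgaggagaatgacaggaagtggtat
Vnn3: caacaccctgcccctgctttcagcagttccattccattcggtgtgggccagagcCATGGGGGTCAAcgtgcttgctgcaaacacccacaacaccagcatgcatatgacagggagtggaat
None of the 2367 stretches of 50 bases in the Vnn1 transcripts occurred in Vnn3, and none of the 1762 in Vnn3 occurred in Vnn1 or, for either gene, in the transcripts of any other gene. The counts of Vnn1 and Vnn3 thus came from sequences that differ at a scale of 50 bases.

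Library totals ran from 16574580 to 23148182 counts, with 13897 to 14295 genes detected. The MPC libraries varied more among themselves than the MPC-PTX libraries, with a biological coefficient of variation of 17.88% against 3.013%. MPC replicate 3 stood furthest from the others, with a chi-square per gene of 60.68 and 32.16 against MPC replicates 1 and 2, which differed from each other by 14.9, so values without it are given where they change a call. The epithelial identity of the cells was plain, with Epcam, Krt8, Krt18 and Krt19 each between 766.3 CPM (Krt18 in MPC-PTX) and 3019 CPM (Krt19 in MPC) on average, where CPM are counts scaled to a common library total. All 8 epithelial markers listed were called lower in MPC-PTX, where 15.6% of all tested genes were called lower and 14.1% higher. Their median log2 fold change was -0.75, and their summed level ran from 9718 to 11270 CPM in MPC and from 5932 to 6136 CPM in MPC-PTX. Of 16 gastric markers 7 were tested, 6 of them lower and Sox2 higher. In MPC and MPC-PTX respectively Muc1 was at 753.8 ± 46.08 and 615.8 ± 3.17 CPM, Cldn18 at 274.1 ± 19.34 and 199.4 ± 2.92 CPM, Ctse at 274.5 ± 38.74 and 1.5 ± 0.35 CPM and Anxa10 at 128.8 ± 34.23 and 0.321 ± 0.127 CPM. Tff1, Tff2, Gkn2 and Pgc had 0 counts in all libraries, while Muc5ac (0 and 2 counts in MPC and MPC-PTX, summed over 3 libraries) and Muc6 (1 and 1) were near 0, so the gastric markers were in part expressed and in part absent. The macrophage markers Csf1r (5 and 5), Itgam (3 and 4) and Adgre1 (5 and 15) and the general leukocyte marker Ptprc (10 and 16) were near 0. Cd68, also a macrophage marker, was not, at 11.5 ± 0.931 CPM in MPC and 9.47 ± 0.525 CPM in MPC-PTX. Nor was Cd14, at 317.5 ± 21.21 CPM in MPC and 261.6 ± 3.44 CPM in MPC-PTX. The summed level of the 14 leukocyte markers, 317.3 to 355.4 CPM in MPC and 268.5 to 275.7 CPM in MPC-PTX, was mostly Cd14, and of the 2 tested Cd14 was lower and Cd68 was not called, while both were called lower without MPC replicate 3. Fibroblast markers summed to 9.88 to 10.9 CPM in MPC and 8.63 to 10.04 CPM in MPC-PTX (of 9 listed, 1 of 2 tested lower). Endothelial markers summed to 3.45 to 4.89 CPM and 3.2 to 3.5 CPM (of 7 listed, 0 of 2 tested called).

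Vnn1 was already well expressed in MPC and stood several times higher in MPC-PTX. Its counts were 1383, 1412 and 1428 in MPC replicates 1 to 3 and 5348, 5045 and 3921 in MPC-PTX replicates 1 to 3. Scaled by the trimmed mean of M-values (TMM) these were 73.45, 72.77 and 68.58 CPM in MPC and 228.3, 227.4 and 232.9 CPM in MPC-PTX. Every MPC-PTX library thus lay above every MPC library, a separation in this direction that 24.2% of all tested genes showed. The Vnn1 mean was 71.6 ± 2.63 CPM in MPC and 229.5 ± 2.93 CPM in MPC-PTX (SD, n = 3 each), a 3.21-fold difference, or 1.68 ± 0.06 (SE) on the log2 scale. Without MPC replicate 3 the log2 fold change was 1.60. By level per length of exon Vnn1 moved from rank 1888 in MPC to rank 464 in MPC-PTX among 11776 tested genes with a length, that is from the top 16.03% to the top 3.94%.

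Vnn3 was scarce in MPC and stood at a moderate level in MPC-PTX. Its counts were 62, 64 and 63 in MPC and 749, 689 and 602 in MPC-PTX. In TMM-scaled units the MPC libraries held 3.29, 3.3 and 3.03 CPM and the MPC-PTX libraries 31.98, 31.05 and 35.75 CPM. The lowest MPC-PTX library was thus far above the highest MPC library. The Vnn3 mean went from 3.21 ± 0.156 CPM to 32.93 ± 2.49 CPM (SD, n = 3 each), a 10.27-fold difference of the means, or 3.36 ± 0.11 (SE) on the log2 scale. Without MPC replicate 3 the Vnn3 log2 fold change was 3.26. Its rank by level per length went from 9309 to 3069 of 11776, that is from the top 79.05% to the top 26.06%.

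Ordered by log2 fold change among the 11795 tested genes, Vnn3 stood at place 33 and Vnn1 at place 190 from the top. In the same fit 14.1% of tested genes were called higher and 15.6% lower in MPC-PTX by edgeR's quasi-likelihood test at an adjusted p (Benjamini-Hochberg) below 0.05. Nothing is read from these shares about the vanins, which were taken from this contrast. In bulk RNA, a change in the number of cells that express a gene and a change in RNA per cell cannot be told apart. The vanins moved opposite to the epithelial markers above, whose part in the difference was not tested.

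**Figure D1:**
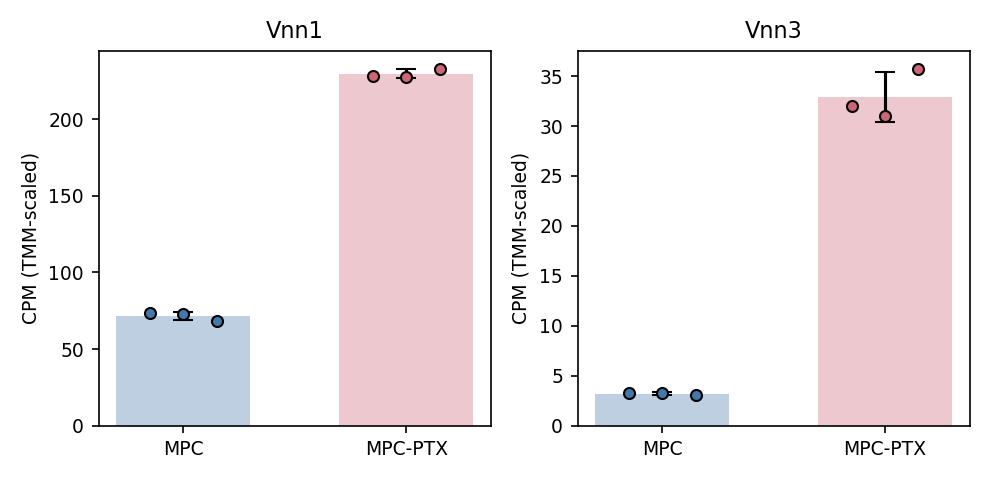
Level of Vnn1 (left) and Vnn3 (right) in TMM-scaled CPM in MPC and MPC-PTX, on separate linear axes from 0, with points for the 3 libraries of each line, bars for the mean and error bars for the SD. For Vnn1 the points sit between 68.58 and 73.45 CPM in MPC and between 227.4 and 232.9 CPM in MPC-PTX, and for Vnn3 between 3.03 and 3.3 CPM and between 31.05 and 35.75 CPM.

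The replicates were close, which the choice of these genes had also used. The coefficient of variation of Vnn1 was 3.68% in MPC and 1.28% in MPC-PTX, near the 2.67% and 1.45% that counting alone gives at these counts. That of Vnn3 was 4.86% in MPC, under the 12.6% that counting gives, and 7.56% in MPC-PTX, above the 3.84% from counting. On the log2 CPM scale the SD of Vnn1 was 0.05 in MPC and 0.02 in MPC-PTX, where the median tested gene had 0.17 and 0.06. A larger SD than that of Vnn1 was found in 92.18% of tested genes in MPC and in 91.11% in MPC-PTX. For Vnn3 the corresponding shares were 87.48% in MPC and 27.99% in MPC-PTX, so its replicates were tighter than most genes in MPC but not in MPC-PTX.

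The balance between the vanins shifted towards Vnn3. Per kb of exon, with exon lengths of 2416 bases for Vnn1 and 1811 bases for Vnn3, the Vnn1 level was 29.64 ± 1.09 CPM per kb in MPC and 95 ± 1.21 CPM per kb in MPC-PTX. The Vnn3 level was 1.77 ± 0.086 and 18.18 ± 1.37 CPM per kb. Vnn1 was therefore the more abundant transcript in both lines, by 16.75 ± 0.228 times in MPC and by 5.24 ± 0.318 times in MPC-PTX. By library, Vnn3 amounted to 5.98%, 6.05% and 5.89% of Vnn1 in MPC and to 18.68%, 18.22% and 20.48% in MPC-PTX. As a share of both transcripts per length, Vnn3 made up 5.64 ± 0.072% in MPC and 16.05 ± 0.838% in MPC-PTX. A ratio within a library does not depend on library scaling. The summed level of both vanins, dominated by Vnn1, was 74.81 ± 2.79 CPM in MPC and 262.4 ± 5.42 CPM in MPC-PTX.

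**Figure D2:**
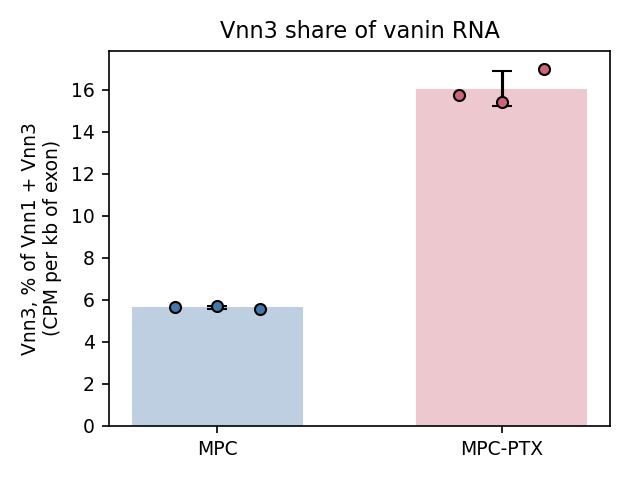
Share of Vnn3 in the summed Vnn1 and Vnn3 level per kb of exon, in percent, for the 3 libraries of MPC and of MPC-PTX (points), with the mean (bars) and SD (error bars) on an axis from 0. The mean share is 5.64% in MPC and 16.05% in MPC-PTX, and the points of the lines do not overlap.

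The sequence just before the Vnn3 start is shown because Vnn3 had the larger change, and because motifs of factors known for oxidative stress and for PPAR genes could be looked for in it. RefSeq promoter sequence was found for Vnn3, 1 of the 2 genes. The 250 bases upstream of the start (GRCm38.p6, plus strand, chr10:23851212-23851461) are given with motif matches in capitals.
Vnn3: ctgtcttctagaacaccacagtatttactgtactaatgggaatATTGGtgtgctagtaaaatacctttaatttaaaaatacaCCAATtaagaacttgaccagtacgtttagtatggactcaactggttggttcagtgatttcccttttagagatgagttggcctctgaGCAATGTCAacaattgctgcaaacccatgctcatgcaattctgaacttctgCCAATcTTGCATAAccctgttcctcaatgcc
With 39.2% G and C and 1 CpG, this stretch is poor in both compared with the median of 32851 promoter stretches of the same length, 52.4% and 6 CpGs. On either strand, the core of the antioxidant response element (TGACNNNGC), which NRF2 binds, matched once, at 82 to 74 bases before the start, as it did in 10.2% of all such promoters. A C/EBP motif (TTGCNNAA) matched once, 25 to 18 bases before the start (9.56% of promoters), and the CCAAT box matched 3 times (at least 1 match in 33.8%). No 2 of these matches overlapped. The PPAR direct repeat (AGGTCANAGGTCA, found in 0.0335% of promoters), its half-site alone (AGGTCA, contained in the repeat, 14.0%), the AP-1 motif (TGANTCA, 6.75%) and TATAAA (12.4%) had no match. A match is a description of letters in this window and not a binding site, and the RNA data do not show which factor acts there.

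All 8 tested genes around the vanins had log2 fold changes below 0. Of 24 genes in the table that start within 1 Mb of the start of Vnn1 or Vnn3, 8 had enough counts to be tested, 0 were called higher and 4 were called lower, with a median log2 fold change of -0.42. Over all tested genes 14.1% were called higher and 15.6% lower, so with 8 genes a count of 0 higher says little. The 547 tested genes of chromosome 10 other than the vanins had a median of -0.18, and all tested genes 0.04. The nearest tested genes, Rps12, a ribosomal protein gene (log2 fold change -0.09 ± 0.08 SE, adjusted p = 0.427), and Slc18b1, a vesicular polyamine transporter gene (-0.17 ± 0.08, adjusted p = 0.169), start at -0.0642 and -0.0545 Mb relative to the start of Vnn3 and were not called, although Rps12 was called lower without MPC replicate 3 (-0.21, adjusted p = 0.00315). On the other side Stx7, a syntaxin of endosomal fusion, fell from 105.5 ± 10.95 to 69.7 ± 2.08 CPM (log2 fold change -0.60 ± 0.09 SE, adjusted p = 0.00287). Enpp3, an ectonucleotidase that can also cleave CoA, fell from 14.63 ± 2.67 to 5.78 ± 0.198 CPM (-1.34 ± 0.15, adjusted p = 0.00092). Ccn2 (-0.72 ± 0.20, adjusted p = 0.0353), a secreted matrix-associated protein, and Med23 (-0.24 ± 0.06, adjusted p = 0.0273), a Mediator subunit, were called lower, but both calls were lost without MPC replicate 2 and without any of the MPC-PTX libraries (adjusted p from 0.05039 to 0.1144 for Ccn2 and from 0.0807 to 0.1287 for Med23). Moxd1 (-0.91 ± 0.43, adjusted p = 0.151) and Enpp1 (-0.08 ± 0.14, adjusted p = 0.683) were not called. The other 16 genes, trace amine receptor genes of the Taar family and Eya4, had too few counts, 13 of them 0 in all libraries.

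**Figure D3:**
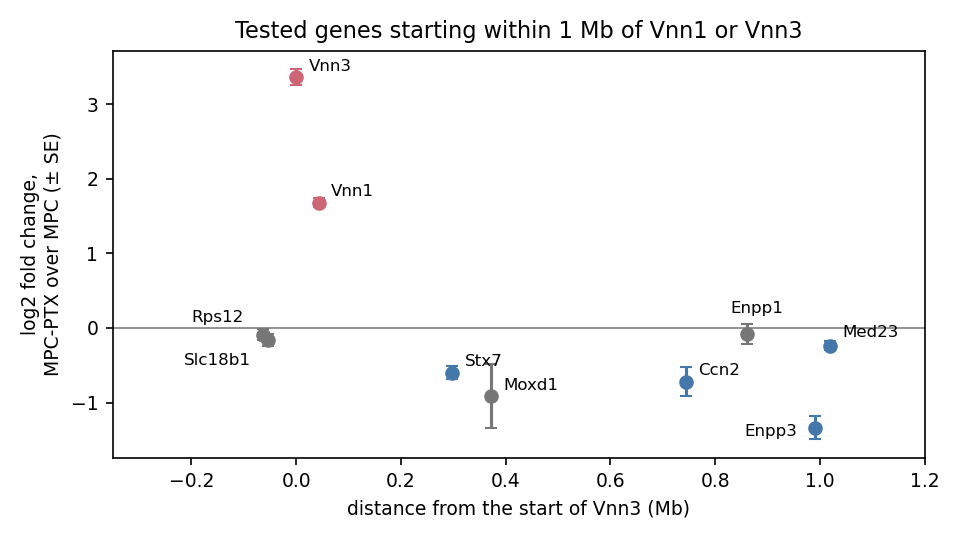
Log2 fold change of MPC-PTX over MPC (vertical axis, error bars SE) against distance from the start of Vnn3 in Mb for Vnn1, Vnn3 and the 8 tested genes within 1 Mb of either. Vnn3 (3.36) and Vnn1 (1.68), in red, are above 0, the 4 neighbours called lower are in blue, and the 4 not called are in grey. All 8 neighbours have values below 0.

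The closest relatives of the vanins by fold, biotinidase (Btd), which frees biotin, and the nitrilase-type amidases Nit1 and Nit2, were not called in either direction. In MPC and MPC-PTX respectively Btd was at 18.24 ± 2.75 and 16.11 ± 0.427 CPM (log2 fold change -0.18 ± 0.13 SE, adjusted p = 0.328), Nit1 at 31.19 ± 0.432 and 29.53 ± 0.938 CPM (-0.08 ± 0.07, adjusted p = 0.46) and Nit2 at 29.47 ± 2.72 and 24.55 ± 1.34 CPM (-0.26 ± 0.10, adjusted p = 0.0839). Without MPC replicate 3, Btd (-0.35, adjusted p = 0.00896) and Nit2 (-0.39, adjusted p = 0.00293) were called lower. The fourth relative listed, Upb1, had 5 counts in 1 MPC library and 0 elsewhere and was not tested.

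Of the genes that take up pantothenate and make CoA from it, 2 of 11 tested were called higher and 0 lower, with a median log2 fold change of 0.08. The shares over all tested genes were 14.1% and 15.6%, so with 11 genes these counts say little. Slc5a6, the sodium-dependent transporter that brings pantothenate and biotin into cells, was at 14.87, 12.94 and 12.44 CPM in MPC and 23.14, 25.91 and 24.53 CPM in MPC-PTX. It rose 1.83-fold without overlap between the lines (log2 fold change 0.87 ± 0.10 SE, adjusted p = 0.00105) and was called under every alternative (adjusted p up to 0.0097). Pank1, a pantothenate kinase, which catalyses the first step of CoA synthesis, was at 23.62 ± 1.3 CPM in MPC and 29.58 ± 2.75 CPM in MPC-PTX. Its call was borderline (log2 fold change 0.32 ± 0.10, adjusted p = 0.045) and was lost under 11 alternatives, including the removal of any library except MPC replicate 3 and a correction for GC content and length (adjusted p up to 0.291). Pank3, another kinase of this step, was at 58.9, 56.79 and 123.2 CPM in MPC and 131.4, 146 and 150.4 CPM in MPC-PTX. It was not called (0.84 ± 0.30, adjusted p = 0.0762), and without MPC replicate 3, the MPC library with the high value, it was (1.25, adjusted p = 9.502e-07). It was also called by DESeq2 (0.81, adjusted p = 0.00672) and after the GC content and length correction (0.55, adjusted p = 0.000621). Without MPC replicate 3 the list held 3 genes called higher and 2 lower, the latter Ppcs and Coasy, later enzymes of the pathway. The shares over all tested genes were then 25.39% and 27.13%.

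The list for breakdown of CoA and pantetheine precursors also holds acyl-CoA thioesterases (Acot genes), which free CoA rather than break it down. Of its 10 tested genes 3 were called higher and 2 lower, with a median of -0.09, where 14.1% and 15.6% of all tested genes were called. With so few genes, nothing particular to the list is read from these counts. The acyl-CoA thioesterases Acot1 (0.646 ± 0.087 to 4.52 ± 0.662 CPM, log2 fold change 2.80 ± 0.22 SE, adjusted p = 0.000159) and Acot2 (3.62 ± 0.634 to 7.51 ± 0.261 CPM, 1.05 ± 0.16, adjusted p = 0.00282) rose, but they are near-identical genes whose reads the counting could have split. Nudt7, a peroxisomal CoA diphosphatase, rose from 5.19 ± 0.26 to 7.96 ± 0.262 CPM (0.62 ± 0.11, adjusted p = 0.0062). Nudt19, another peroxisomal CoA diphosphatase, fell from 172.3 ± 22.05 to 123.4 ± 1.94 CPM (-0.48 ± 0.10, adjusted p = 0.00923). The second gene that fell was Enpp3, given above with the neighbours. Nudt8 had 0 counts in all libraries and Alpl 3 counts in MPC and 7 in MPC-PTX. Among the proteins that carry the phosphopantetheine arm of CoA and the enzyme that attaches it, 0 of 6 were called higher and 1 lower (median -0.04). That gene was Aldh1l1, a folate enzyme, with 209, 229 and 210 counts in MPC and 3, 1 and 4 in MPC-PTX (log2 fold change -6.35 ± 0.29 SE, adjusted p = 2.2e-05).

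On the cysteamine side, 1 of 5 tested genes was called higher and 0 lower, with a median of -0.09. With 14.1% and 15.6% called over all tested genes, nothing is read from a count over 5 genes. Ado, the dioxygenase that oxidises cysteamine to hypotaurine, was at 37.18, 37.16 and 34.96 CPM in MPC and 33.56, 35.11 and 31.47 CPM in MPC-PTX. These values overlapped between the lines and Ado was not called (log2 fold change -0.13 ± 0.08 SE, adjusted p = 0.277), though without MPC replicate 3 it was called lower (-0.21, adjusted p = 0.0465). Fmo1, a flavin monooxygenase that turns hypotaurine into taurine, had 0 counts in each MPC library and 27, 23 and 9 in MPC-PTX (adjusted p = 0.00547). Taking 3 counts as the limit that 0 allows over the 3 MPC libraries together, Fmo1 was at least 19.1-fold higher in MPC-PTX, an estimate that covers counting error only.

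**Figure D4:**
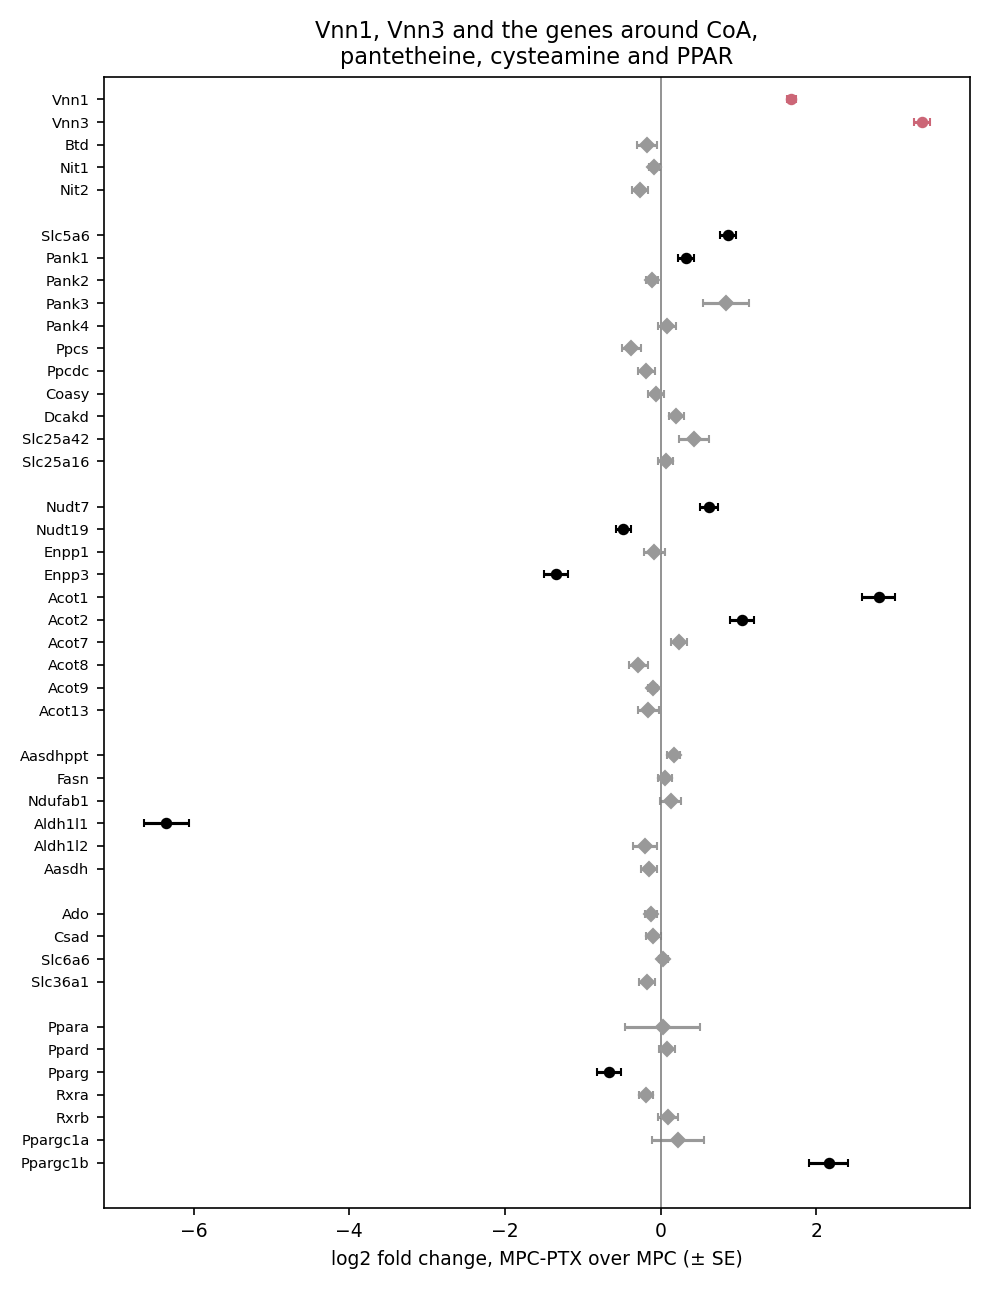
Log2 fold change of MPC-PTX over MPC (horizontal axis, error bars SE) for Vnn1, Vnn3 and the tested genes of 6 lists, in blocks from top to bottom: relatives, pantothenate uptake and CoA synthesis, CoA breakdown, phosphopantetheine carriers, cysteamine and taurine, and PPAR receptors. Red circles are the vanins (not tested), black circles are called genes and grey diamonds genes that were not called. Fmo1 is left out because it had 0 counts in MPC. Aldh1l1 (-6.35) is farthest to the left and Vnn3 (3.36) farthest to the right.

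PPAR receptors and their partners were checked next, because PPARalpha is known to act on Vnn1 in liver. Of 7 tested PPAR receptors and partners 1 was called higher and 1 lower, with a median of 0.08, near the 14.1% and 15.6% over all tested genes. Ppara, the receptor known for Vnn1 in liver, had 6, 8 and 13 counts in MPC and 15, 5 and 9 in MPC-PTX, so it was barely detected in either line (log2 fold change 0.03 ± 0.48 SE, adjusted p = 0.971). Ppard was at 25.64 ± 2.86 and 27.16 ± 1.29 CPM and was not called (0.08 ± 0.10, adjusted p = 0.579). Pparg was at 28.89, 44.68 and 39.62 CPM in MPC and 24.08, 23.43 and 23.87 CPM in MPC-PTX and was called lower (-0.67 ± 0.16, adjusted p = 0.0168), a call lost without MPC replicate 2 and without any MPC-PTX library (adjusted p from 0.0594 to 0.07). Ppargc1b, a coactivator, rose from 0.444 ± 0.099 to 1.99 ± 0.094 CPM (2.16 ± 0.25, adjusted p = 0.000968).

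Of 18 known PPAR target genes tested from 24 listed, 0 were called higher and 3 lower, beside 14.1% and 15.6% over all tested genes, with a median log2 fold change of 0.06. The list is not complete. It leaves out Acot1 and Acot2, which were called higher and are given above with CoA breakdown. Cpt1a, which admits fatty acids to mitochondria (139.2 ± 5.95 to 147.6 ± 3.74 CPM, 0.08 ± 0.06 SE, adjusted p = 0.341), and the lipid droplet protein Plin2 (0.22 ± 0.07, adjusted p = 0.0588) were not called. Pdk4, a kinase that restrains pyruvate oxidation, fell from 2.97 ± 0.306 to 0.577 ± 0.458 CPM (-2.38 ± 0.53, adjusted p = 0.0143), and its call was lost without MPC replicate 2 or without MPC-PTX replicate 3 (adjusted p up to 0.0603). The calls of Slc25a20 (-0.34, adjusted p = 0.0431) and Acaa1a (-0.27, adjusted p = 0.044) were lost without any library except MPC replicate 3, with adjusted p up to 0.169 and 0.179. Acaa1a also has the near-identical copy Acaa1b. Cyp4a10 and Cyp4a14, strong targets in liver, had 0 counts in all libraries.

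Vanin activity releases a thiol, so genes of glutathione and of the NRF2 response were also counted. Of 13 tested, 3 were called higher and 5 lower, with a median of -0.08, beside 14.1% and 15.6% called over all tested genes. Slc7a11, the cystine importer, rose from 25.33, 15.25 and 36.74 CPM in MPC to 114.2, 130.4 and 129.2 CPM in MPC-PTX without overlap (log2 fold change 2.27 ± 0.29 SE, adjusted p = 0.00182). Glutathione synthetase Gss fell from 34.44 ± 3.89 to 21.5 ± 1.73 CPM (-0.68 ± 0.11, adjusted p = 0.00431), and Nqo1, a quinone reductase and standard NRF2 target, from 8.92 ± 0.904 to 5.22 ± 0.433 CPM (-0.77 ± 0.13, adjusted p = 0.00504). Hmox1 (0.42) and Gclc (0.25) were called higher and Gclm (-0.35), Keap1 (-0.30) and Txnrd1 (-0.21) lower, all 5 with adjusted p between 0.0179 and 0.042. These 5 calls were lost without MPC replicate 2 and without any of the MPC-PTX libraries. The factor itself, Nfe2l2, was at 155.4 ± 6.67 and 147.5 ± 1.8 CPM (-0.08 ± 0.06, adjusted p = 0.372), and called lower without MPC replicate 3 (-0.15, adjusted p = 0.0287). Its motif in the Vnn3 promoter is given above.

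The genes whose values followed each vanin most closely were ranked by the root mean square difference of log2 CPM, each gene centred on its own mean over the 6 libraries. These likenesses rest on 2 lines and largely measure a fold change of the same size. For Vnn1 the nearest genes included B4galt2 (difference 0.05), a galactosyltransferase gene, Hsh2d (0.07), an adaptor protein gene, Ackr3 (0.07), the atypical chemokine receptor, and Sdc2 (0.09), a syndecan gene, with log2 fold changes from 1.56 to 1.73. Their levels ranged from 4.03 CPM (B4galt2) to 16.41 CPM (Ackr3) in MPC, below that of Vnn1. For Vnn3 the 5 nearest were Abcb4 (0.19), which encodes a phospholipid transporter, Pde4b (0.21), a cAMP phosphodiesterase gene, Ntng1 (0.22), a netrin family gene, AF067061 (0.22) and Chic1 (0.24). All 5 were rarer than Vnn3 in both lines. Pde4b was the most abundant of them, at 2.32 ± 0.0349 CPM in MPC and 18.65 ± 0.904 CPM in MPC-PTX. AF067061 had 0 counts in MPC and 42 in MPC-PTX, so its likeness depends on the prior count of 2 in log2 CPM. Vnn3 came at place 5623 among genes ranked by likeness to Vnn1 and Vnn1 at place 133 for Vnn3, at a difference of 0.82. Their Pearson r over the 6 libraries was 0.9996 and also rests on 2 lines. A value near 1 was set in advance, because both genes were chosen for a rise between these lines with close replicates. Other genes that differ between the lines reach similar values, such as Ackr3 with Vnn1 (0.999) and Pde4b with Vnn3 (0.9983).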

How the data were processed

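RNA of MPC and MPC-PTX (3 libraries each) was measured as poly-A RNA-seq. Raw counts per gene, not normalized, were deposited by the authors after read filtering (fastp 0.22.0) and alignment with HISAT2. The genome build, annotation, counter and strand setting are not given in the sources used here, so overlapping genes may share reads. From the deposited counts, TMM scaling, filterByExpr (minimum count 10) and edgeR 4.0.16 (glmQLFit, robust, and glmQLFTest, R 4.3.3) gave log2 fold changes, and p-values were adjusted by Benjamini-Hochberg over 11795 genes, called below 0.05. The fit was tested on simulated data. The simulation gave both lines the same spread, unlike MPC and MPC-PTX here. Log2 CPM used a prior count of 2. GENCODE M21 gave positions and lengths for 21851 of 21959 genes, and RefSeq the promoter. Vnn1, Vnn3 and all lists were chosen with earlier results of these data known. Named were the vanins, their relatives, listed genes with a call or a direct role, tested neighbours within 1 Mb and the 5 likest genes, of which not all are reported here. Alternatives were DESeq2 1.42.0, other size factors, other filters, a replicate block, each library left out, the study's call rule (absolute log2 fold change above 1, unadjusted p below 0.05) and, added after the data were seen, a GC content and length correction.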

Additional observations from a re-analysis of the deposited data

How the results depend on the processing

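The log2 fold change of Vnn1 ran from 1.60 to 1.72 over the alternatives and that of Vnn3 from 3.26 to 3.40. For Vnn1, values with a library left out ran from 1.5982 (without MPC replicate 3, more than the spread between replicates from the reported value) to 1.6986. Over all genes, 1668 were called higher and 1841 lower. With GC content and length corrected, 2527 genes were called higher, and by the study's call rule 445 higher and 512 lower. With a library left out, the higher calls ran from 804 (without MPC-PTX replicate 1) to 3020 (without MPC replicate 3) and the lower calls from 1077 (without MPC-PTX replicate 2) to 3227 (without MPC replicate 3). Without MPC replicate 3, 25.39% of tested genes were called higher and 27.13% lower, and the lists gave 3 higher and 4 lower for CoA breakdown, 1 and 1 for cysteamine, 1 and 2 for PPAR receptors, 0 and 5 for PPAR targets, 3 and 7 for glutathione and NRF2, and 0 and 5 for the neighbours. The medians of the PPAR receptors (-0.02) and PPAR targets (-0.03) were then below 0, as was that of all tested genes (-0.0008). Same-numbered libraries did not consistently deviate together (r of 0.15, -0.02 and 0.17), so the numbers are not treated as pairs. Between libraries of different numbers r ran from -0.23 (MPC replicate 3 with MPC-PTX replicate 1) to 0.15 (MPC replicate 2 with MPC-PTX replicate 1). A replicate block gave 1787 higher and 1717 lower calls, added a call for Pank3 (0.93, adjusted p = 0.013) and lost those of Pank1, Acaa1a, Gclc, Txnrd1 and Med23 (adjusted p from 0.05634 to 0.06661), and not every library correlated best with its own number. For 79 listed or neighbouring genes, 919 of 1020 alternative values stayed on the same side of the threshold, 68 lost a call, 33 gained one and 0 changed sign with a call, and 45 genes had the same call throughout. With 3 libraries a line, no single library could be tested as standing apart in the vanin values. Depth limits Vnn3 in MPC, where each library held at most 64 counts. Counting errors and floors cover counting alone, since no molecular identifiers marked the reads.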
